A study of Mus musculus with 8 samples.

Results

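Cx3cr1, P2ry12, Tmem119, Csf1r, C1qa, C1qb, C1qc, Aif1 and Trem2 are 9 genes by which microglia are recognised, and they were followed here in translating RNA purified from mu opioid receptor (MOR) expressing cells of the mouse paraventricular nucleus of the thalamus (PVT). They were picked by name, not by their values, though with earlier results of these data known. They are 9 of the 18939 genes in the table of counts, each with a single transcript there. The ribosomes of these cells carried a tag, EGFP fused to the ribosomal protein L10a, and were pulled down with antibodies to GFP before sequencing (translating ribosome affinity purification, TRAP). All mice had the genotype OPRM1cre X EGFP-L10a on a C57Bl/6J background, so that the tag was made wherever Cre recombinase, expressed from the Oprm1 locus, was or had been active. The control group (4 libraries) had 0.2% saccharin in the drinking water for 11 days, and the morphine group (4 libraries) had the same solution with morphine, at 0.3 mg/ml at first and 0.5 mg/ml by the end. Mice were 8 to 12 weeks old at the start, each library pooled PVT dissections of 2 mice of 1 sex, and each group had 2 male and 2 female libraries by the labels. The labels name MOR positive neurons as the captured cells, and no RNA from before the pull-down and no untagged mice were analysed here, so that microglial transcripts made in tagged cells and those carried along from other cells cannot be told apart.

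Microglia are the resident immune cells of the brain. They arise from the yolk sac, depend on signals through the receptor Csf1r, survey the tissue with motile processes and take up debris and synapses. Cx3cr1 and P2ry12 are receptors for signals from neurons, the fractalkine Cx3cl1 and extracellular nucleotides, Tmem119 is a surface protein of resting microglia, and C1qa, C1qb and C1qc encode the chains of complement C1q, the molecule that starts the classical complement cascade and, in the brain, tags synapses. Trem2 is a lipid-sensing receptor that signals through the adaptor Tyrobp, and Aif1 encodes Iba1, the calcium-binding protein by which microglia are commonly stained.

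Total counts ranged from 37081348 to 43311793 in the control libraries and from 31151103 to 47582947 in the morphine libraries. The summed level of 9 choroid plexus genes was 113 to 376 CPM in morphine libraries and 16.7 to 83.4 CPM in controls, and that of 8 genes of telencephalic pyramidal neurons 404 to 786 CPM and 154 to 454 CPM, where CPM are counts per 1000000 counts of the normalized library. In these lists and 7 others of other cell types, edgeR called 1 gene, Bhlhe22 of the telencephalic list (log2 fold change 1.13, adjusted P = 0.0176), and DESeq2 called 7 choroid plexus, 5 telencephalic and 1 neuronal gene and 0 of the others. The edgeR call was lost without control replicate 1, morphine replicate 4 or morphine replicate 8, and without control replicate 6 edgeR called 5 telencephalic and 5 choroid plexus genes. Control replicate 5 is labelled female, but the levels of 4 Y-linked genes there were 28.7% to 35.8% of the male mean. The part of these differences in the results below was not tested, except where values without a library are given.

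The 9 microglia genes were close to the lower end of what was measured. Together they took 1030 counts in the 8 libraries, or 3.32 CPM, and no member had a mean of 1 CPM. Per kilobase of transcript, the scale on which genes can be compared, Aif1 had the highest level of the 9 (0.346 CPM per kilobase), followed by C1qa (0.319) and C1qb (0.296). Csf1r (0.199), P2ry12 (0.195) and C1qc (0.187) formed a middle group, and Cx3cr1 (0.143), Tmem119 (0.112) and Trem2 (0.0600) were lowest. Aif1 lay above 29.4% of all genes on this scale and Trem2 above 17.6%. The SD between control libraries was larger than the step between any neighbours in this order, with Aif1 at 0.333 ± 0.144, C1qa at 0.278 ± 0.237 and Trem2 at 0.0708 ± 0.0831 CPM per kilobase (SD, n = 4).

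Set against other cell types, the median of the 8 neuronal genes was 1219-fold the median of the 9 microglia genes per kilobase. The corresponding figure was 120-fold for 8 oligodendrocyte genes and 10.1-fold for 8 astrocyte genes. Endothelial genes (5 genes, 0.847-fold) lay near the microglia genes, while border macrophage genes (10 genes, 0.147-fold) lay lower. Lists of other cells hold genes of unlike strength in their own cells, so these folds do not give cell numbers. In bulk RNA, fewer cells of a type and less RNA per cell cannot be told apart.

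**Figure D1:**
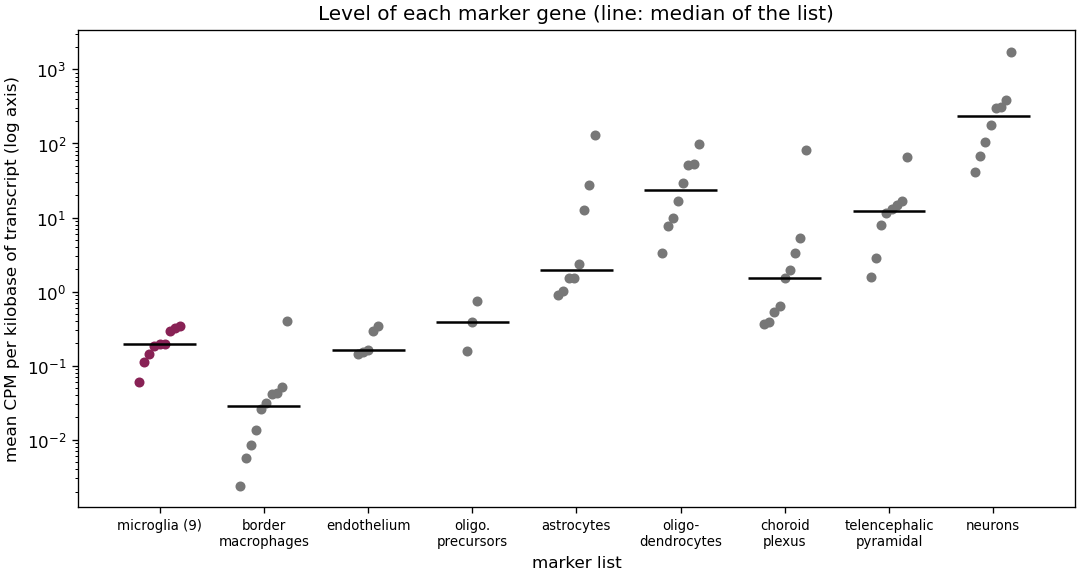
Mean level over 8 libraries of each marker gene, in CPM per kilobase of transcript on a log axis, by list of cell type markers; each point is a gene and each line the median of its list. The 9 microglia genes lie between 0.0600 and 0.346, at the height of the endothelial genes, and the lowest neuronal gene lies at 41.7.

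Morphine did not separate the groups for any of the 9 genes. edgeR called 0 of 9 members at an adjusted P value under 0.05, against 0.195% of all genes, and DESeq2 called 0 of the 8 members to which it gave an adjusted P value (all but Trem2), against 3.11% of all such genes. None of the 9 had an unadjusted P value under 0.05 by edgeR or by DESeq2. The control and morphine libraries overlapped for all 9 genes, where 6.54% of all genes did not overlap. C1qa and Aif1 had fold changes above 0 and the other 7 below 0, with a median of -0.16 on the log2 scale beside 0.01 over all genes.

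Among the receptors, Csf1r, the receptor for Csf1 and Il34 on which microglial survival depends, had the most counts. It was measured at 0.308, 1.69, 0.215 and 1.03 CPM in control replicates 1, 2, 5 and 6 and at 0.450, 1.03, 0.520 and 0.904 CPM in morphine replicates 3, 4, 7 and 8. The control libraries thus held both the lowest and the highest value, and all 4 morphine libraries lay between them. The log2 fold change of morphine over control was -0.16 with a standard error (SE) of 0.57 (edgeR adjusted P = 0.934).

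Cx3cr1, the fractalkine receptor, followed the same order in the controls, with 0.333, 1.24, 0.167 and 0.434 CPM in replicates 1, 2, 5 and 6. The morphine libraries were closer together, with 0.422, 0.605, 0.422 and 0.678 CPM in replicates 3, 4, 7 and 8. Only control replicate 2 exceeded the highest morphine library, and the group means of 0.543 ± 0.476 and 0.532 ± 0.130 CPM (SD, n = 4) differed by far less than either spread (log2 fold change -0.03, SE 0.51, edgeR adjusted P = 0.987). P2ry12, the receptor by which microglial processes find released ADP, had 0.333, 0.833, 0.191 and 0.407 CPM in the controls and 0.309, 0.515, 0.422 and 0.493 CPM in the morphine libraries, in the same order of replicates. Its control values again enclosed the morphine values, at a log2 fold change of -0.03 (SE 0.43). P2ry12 lies on the opposite strand within Med12l (126 CPM on average), and the counting is not stated to use the strand, so that its values are uncertain. Cx3cr1 likewise overlaps the long non-coding RNA Gm33858 on the other strand, and Csf1r overlaps Gm52352 and the microRNA Mir6983. Tmem119, a marker that sets microglia apart from most other macrophages, had 5 to 21 counts per library. Its control values of 0.179, 0.473, 0.120 and 0.353 CPM overlapped the morphine values of 0.141, 0.151, 0.260 and 0.329 CPM (log2 fold change -0.33, SE 0.49).

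**Figure D2:**
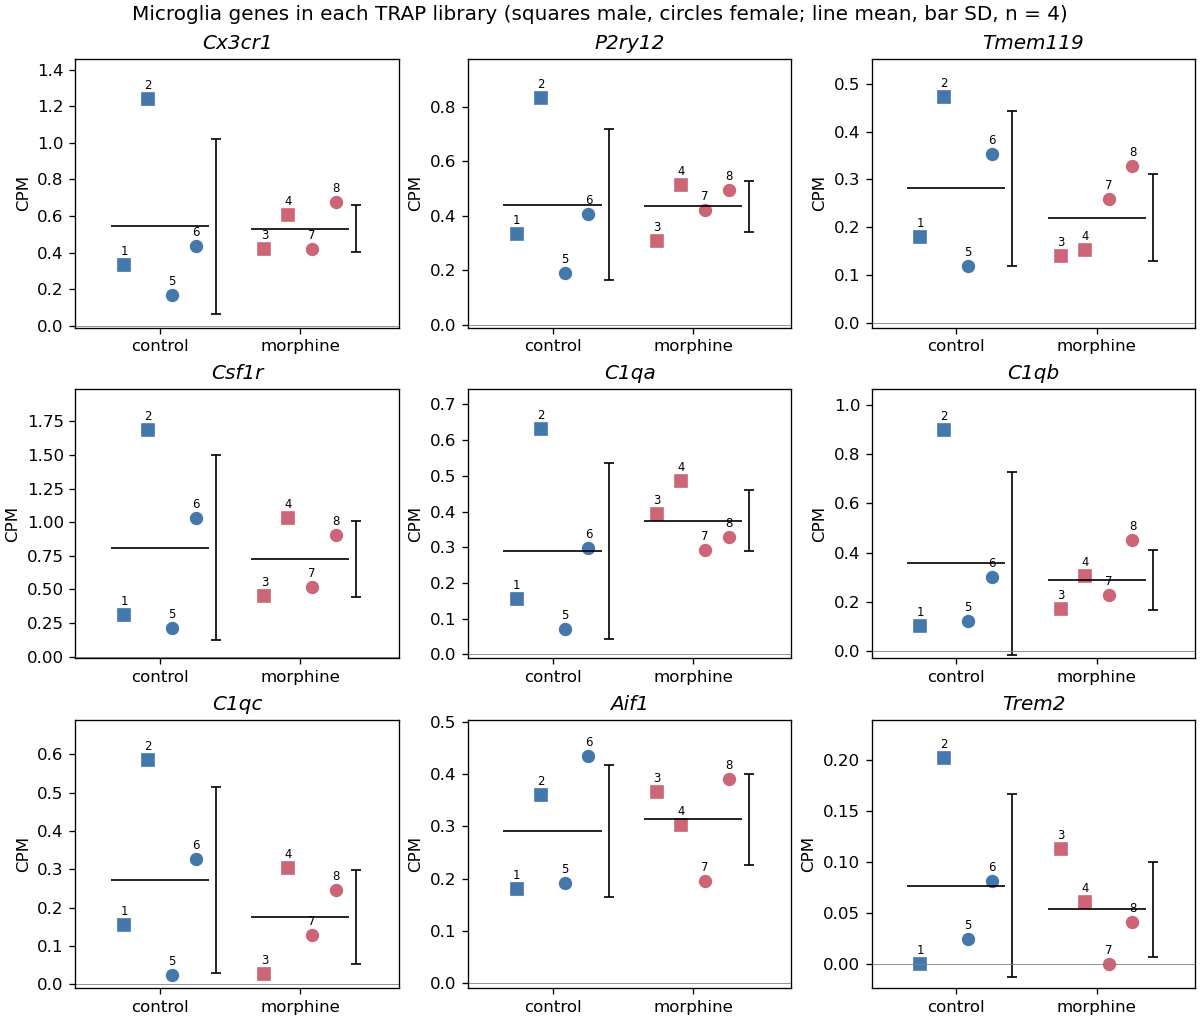
Level in CPM (linear axes, 1 panel per gene) of the 9 microglia genes in the 4 control (blue) and 4 morphine (red) libraries, with replicate numbers; squares are male and circles female libraries, horizontal lines are group means and bars the SD. Control replicate 2 is the highest point in every panel but that of Aif1, and the groups overlap in all 9.

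The 3 C1q chains are encoded side by side on the minus strand of chromosome 4 in GRCm38.p6, C1qb at chr4:136880126-136886200, C1qc at chr4:136889801-136892936 and C1qa at chr4:136895916-136898844. They had similar profiles across controls. C1qa had 0.154, 0.630, 0.0717 and 0.299 CPM in control replicates 1, 2, 5 and 6 and 0.393, 0.484, 0.292 and 0.329 CPM in morphine replicates 3, 4, 7 and 8. In this gene 3 of the 4 morphine libraries lay above all controls but replicate 2, and the log2 fold change was 0.36 (SE 0.54, edgeR adjusted P = 0.826). C1qb had 0.103, 0.900, 0.120 and 0.299 CPM in the controls and 0.169, 0.303, 0.227 and 0.452 CPM in the morphine libraries. C1qc had 0.154, 0.585, 0.0239 and 0.326 CPM in the controls and 0.0281, 0.303, 0.130 and 0.247 CPM in the morphine libraries. For both chains the values overlapped, with log2 fold changes of -0.29 (SE 0.64) and -0.60 (SE 0.76), and C1qc rested on a single count in control replicate 5 and in morphine replicate 3.

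Trem2 and Aif1 stood at the ends of the order per kilobase. Trem2 had 0, 9, 1 and 3 counts in the controls and 4, 2, 0 and 2 counts in the morphine libraries. The 0 in control replicate 1 allows up to 0.0769 CPM and that in morphine replicate 7 up to 0.0974 CPM (3 counts), so that these values are not shown to lie below those of 1 to 3 counts. Its log2 fold change of -0.52 had an SE of 0.96. Tyrobp, the adaptor of Trem2, which was named after its values were seen, had 0.0933 ± 0.0470 CPM in controls and 0.0660 ± 0.0114 CPM in morphine libraries (SD, n = 4), a log2 fold change of -0.45 (SE 0.58). Aif1 was the exception among the members, since its highest value was in control replicate 6. Its control values of 0.179, 0.360, 0.191 and 0.434 CPM and its morphine values of 0.365, 0.303, 0.195 and 0.391 CPM covered nearly the same range, with a log2 fold change of 0.13 (SE 0.40).

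The 95% interval of the log2 fold change was widest for Trem2 (-2.63 to 1.58) and narrowest for Aif1 (-0.75 to 1.00), and the median SE of the 9 was 0.54 beside 0.18 over all genes. A change within a gene's own interval was not excluded by these counts with this spread between libraries. The adjusted P values by edgeR's quasi-likelihood test lay between 0.774 and 0.987. An exact two-sided permutation test of each gene over the 70 arrangements of the libraries gave unadjusted P values from 0.429 to 1 (the smallest this design allows is 0.0286).

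The controls spread more widely than the morphine libraries. The summed level of the 9 genes was 1.74, 6.91, 1.12 and 3.67 CPM in control replicates 1, 2, 5 and 6, which is a 6.15-fold range (3.26-fold without replicate 2). In morphine replicates 3, 4, 7 and 8 it was 2.39, 3.75, 2.47 and 3.86 CPM, a 1.62-fold range. The exact 95% Poisson interval for control replicate 2 was 6.16 to 7.73 CPM and did not meet that of any other library (the next highest interval ended at 4.48 CPM), where such intervals cover counting error only. Against the spread between libraries, Dixon's outlier test at its 95% critical value set no library apart for the sum or any of the 9 genes in either group (0 of 20 examined). Control replicate 2 held 55.1% of the counts of the 9 genes in the control group. It was the highest library for 8 of the 9 members, against 13.9% of all genes. The lowest library was control replicate 5 for 6 members and control replicate 1 for Aif1 and C1qb, while Trem2 had 0 counts both in control replicate 1 and in morphine replicate 7.

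Without control replicate 2 all 9 genes had a log2 fold change above 0. Their median rose from -0.16 to 0.51, while that of all genes went from 0.01 to 0.02. C1qa had the largest of these values, 1.10 (SE 0.49), followed by Cx3cr1 at 0.79 (SE 0.40) and C1qb at 0.76 (SE 0.53). In this fit C1qa was the 1 member with an unadjusted P value under 0.05, and 0 of 9 passed after adjustment (lowest edgeR adjusted P = 0.259). Control replicate 2 was the highest library for 8 of the 9 members, against 13.9% of all genes, so its removal was bound to raise their fold changes. The direction of 7 of the 9 genes turned without it. The direction of Cx3cr1, P2ry12 and Csf1r also turned without morphine replicate 3, and that of Cx3cr1 without morphine replicate 7. Aif1 turned without control replicate 1, control replicate 5 or morphine replicate 8, while C1qa stayed above 0 whichever library was left out. Leaving out control replicate 5, the lowest library for 6 members, moved the values the other way. Every gene but C1qa (0.02) then lay below 0, from -0.04 for Aif1 to -0.999 for C1qc.

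**Figure D3:**
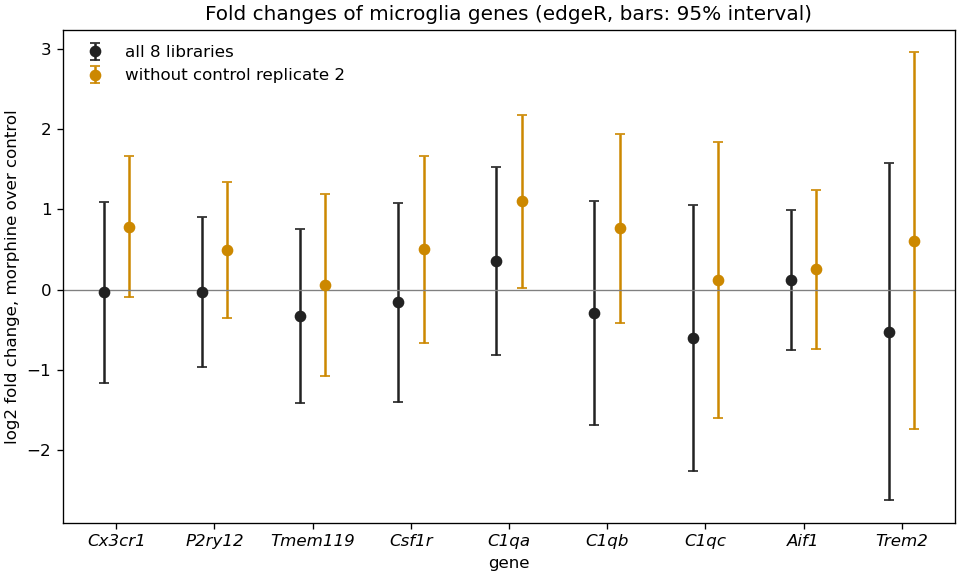
Log2 fold change of morphine over control for the 9 microglia genes by edgeR, with 95% intervals, from all 8 libraries (black) and without control replicate 2 (orange). From all libraries 7 of 9 points lie below 0 and every interval crosses 0; without control replicate 2 all 9 points lie above 0, and the interval of C1qa alone excludes it.

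Other genes were higher in control replicate 2 as well. All 5 endothelial genes were highest there, with a summed level of 6.80 CPM against 1.88 to 3.62 CPM in the other 7 libraries. Flt1, a receptor for vascular endothelial growth factor and the endothelial gene with the highest mean, had 2.50 CPM there and 0.584 to 1.28 CPM elsewhere. Of 31 other microglia and myeloid genes, 14 were highest in control replicate 2, 12 of them among the 24 with a mean below 1 CPM. The sum of that list was 43.2 CPM there, beside 42.2 CPM in control replicate 6 and 49.2 CPM in morphine replicate 8. The library was also highest for 3 of 8 astrocyte genes, 6 of 14 complement genes and 2 of 10 border macrophage genes, and for 0 of 8 oligodendrocyte genes, 0 of 8 neuronal genes and 0 of 10 genes of blood cells. The border macrophage list summed to 3.11 CPM there and to 1.95 to 2.53 CPM in the other libraries, of which F13a1 made up 0.908 to 2.16 CPM over all 8 libraries. The part of endothelial, astrocyte or border macrophage RNA in the member levels was not tested.

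Oligodendrocyte RNA followed another pattern, from 120.5 CPM in control replicate 1 and 458 CPM in control replicate 2 to 1220 CPM in control replicate 5 and 1523 CPM in morphine replicate 8 for the summed list. Control replicate 5, with the fewest counts of the 9 microglia genes, was thus the second highest library for oligodendrocyte genes.

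**Figure D4:**
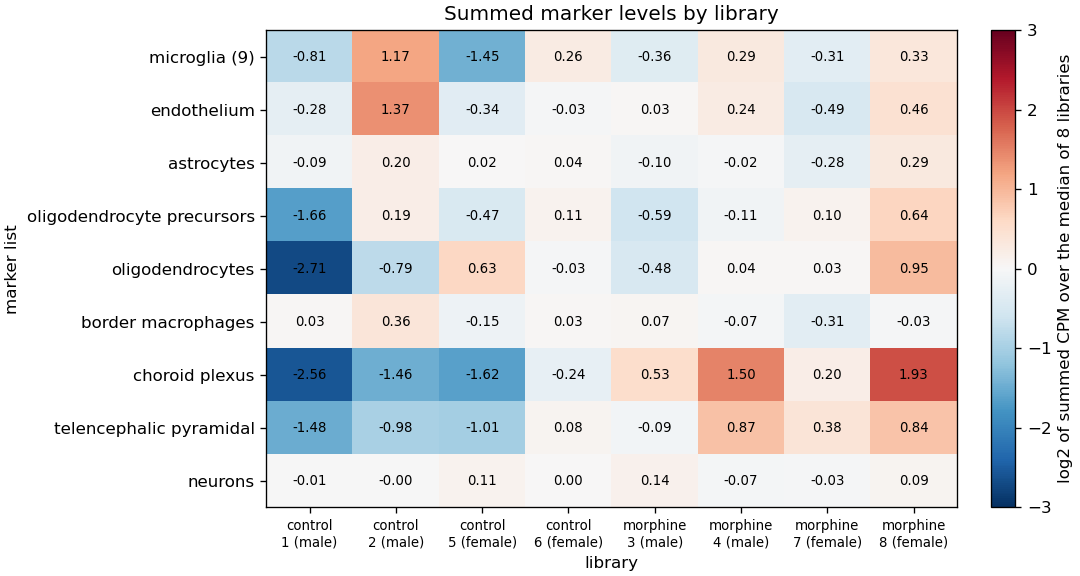
Summed level of each marker list in each library, as the log2 of its ratio to the median of the 8 libraries (red above, blue below). Control replicate 2 stands at 1.17 for the 9 microglia genes and 1.37 for endothelium but at -0.79 for oligodendrocytes, and the lowest libraries for choroid plexus and telencephalic genes are controls.

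The 10 genes of at least 1 CPM whose profile over the 8 libraries was most like the mean centred log2 profile of the 9 were, in order, Mgat5b (Pearson's r = 0.99), Axl (r = 0.98), Mlc1, Slc25a44, Fam132a, Slc12a9, Tmem179, Rps6ka4, 9430015G10Rik and Celsr3 (r = 0.95), out of 12989 genes compared. The 95th percentile of r over these genes was 0.76. These are descriptions over 8 libraries that share depth and dissection with the members, and control replicate 2 was the highest library for all 10. Without it, r of the 10 was between 0.91 and 0.98, but the 10 had been chosen for high r with the remaining libraries included. Axl, a receptor that binds Gas6 on dying cells, had 2.79 CPM in control replicate 2 and 0.311 to 1.34 CPM in the others. Mgat5b, a glycosyltransferase, was far more abundant but varied less, with 104.5 CPM against 60.8 to 82.8 CPM.

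Female libraries were lower than male libraries for 7 of the 9 genes, but edgeR called 0 of 9, against 0.00528% of all genes, and none had an unadjusted P value under 0.05 by edgeR or DESeq2. Trem2 had the largest difference, on 21 counts in all (log2 difference of female over male -1.28, SE 1.00). It was followed by C1qa, with means of 0.248 CPM in female and 0.416 CPM in male libraries (log2 difference -0.78, SE 0.51, edgeR adjusted P = 1.00). Summed levels were 2.78 ± 1.26 CPM in female and 3.70 ± 2.30 CPM in male libraries (SD, n = 4). Control replicates 2 and 5, the highest and the lowest library, are labelled as different sexes, and the label of the latter is in doubt. Without control replicate 5 the female libraries were lower for 5 of 9 genes, with log2 differences near 0 for Csf1r (-0.0099), C1qb (0.0031) and C1qc (0.032). Without control replicate 2 the female libraries had the higher values for Cx3cr1, P2ry12, Csf1r, C1qb and C1qc, while the log2 difference went to -0.41 for Trem2 and to -0.25 for C1qa. In female libraries the morphine mean was the higher for 7 of 9 genes, in male libraries for 2 of 9. The interaction of sex and condition, which tests this difference, called 0 of 9 genes, with 0% of all genes called. It had the widest errors of the 3 comparisons, such as 1.53 on the log2 scale with an SE of 0.94 for Cx3cr1, and none of the 9 had an unadjusted P value under 0.05.

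Promoter windows of C1qb, C1qc and Trem2 are shown as those of members that held a match to GAGGAA, the core bound by PU.1, a factor of the macrophage lineage, and were highest in control replicate 2. Cx3cr1 and P2ry12, also highest there, held no match in their windows, and Aif1, highest in control replicate 6, held one. The windows hold the 250 bases before a RefSeq start site (GRCm38.p6), read 5′ to 3′ on the strand of the gene, and capitals mark GAGGAA or its reverse complement. RefSeq windows were at hand for 6 of the 9 genes and not for Tmem119, Csf1r and C1qa. C1qb is at chr4:136886201-136886450 (minus strand), C1qc at chr4:136892915-136893164 (minus strand) and Trem2 at chr17:48346151-48346400 (plus strand). The C1qc window ends at another RefSeq start site, which lies inside the gene span given above.
C1qb: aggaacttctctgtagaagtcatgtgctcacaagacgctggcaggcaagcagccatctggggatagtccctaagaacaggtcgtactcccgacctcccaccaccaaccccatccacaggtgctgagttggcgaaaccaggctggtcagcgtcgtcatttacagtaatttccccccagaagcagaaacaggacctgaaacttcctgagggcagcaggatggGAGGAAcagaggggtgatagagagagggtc
C1qc: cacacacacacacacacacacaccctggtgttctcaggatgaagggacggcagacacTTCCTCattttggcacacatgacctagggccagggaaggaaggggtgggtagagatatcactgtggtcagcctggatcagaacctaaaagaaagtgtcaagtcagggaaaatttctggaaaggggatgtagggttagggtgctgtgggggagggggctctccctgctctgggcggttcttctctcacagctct
Trem2: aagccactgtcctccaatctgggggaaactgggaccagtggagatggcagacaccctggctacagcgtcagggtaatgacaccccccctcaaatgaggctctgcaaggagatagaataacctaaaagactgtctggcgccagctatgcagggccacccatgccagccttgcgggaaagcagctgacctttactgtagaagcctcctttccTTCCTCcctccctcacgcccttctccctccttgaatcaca
The match lay 30 bases before the start site in C1qb, 193 bases before that other start site in C1qc and 40 bases before the start site in Trem2. Each of 4 motifs was searched on both strands. GAGGAA was found in 4 of the 6 windows (Aif1, C1qb, C1qc and Trem2), against 23.3% of all 32851 windows of this length. The longer GAGGAAGT, which contains GAGGAA, was found in C1qc (2.44% of all windows). The core of the interferon-stimulated response element, GAAA repeated with any 2 bases between, was found in Aif1 (2.98%), and TGTGGTT, a RUNX motif, in 0 of 6 (4.40%). A match describes the letters of the window and not a binding site.

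The partner list holds ligands, receptors and enzymes through which microglia exchange signals with other cells, and 8 of its 11 genes had a mean of at least 1 CPM. Fold changes lay above 0 for 10 of the 11 (median log2 fold change 0.31), 2 had an unadjusted P value under 0.05 and 0 were called by edgeR or DESeq2. Cx3cl1, the ligand of Cx3cr1, had 154, 276, 171 and 201 CPM in control replicates 1, 2, 5 and 6 and 177, 363, 249 and 307 CPM in morphine replicates 3, 4, 7 and 8. The groups overlapped, and the log2 fold change was 0.45 (SE 0.22, edgeR adjusted P = 0.459). Cd47, a signal that restrains uptake by microglia, was 67.8 ± 10.6 CPM in controls and 84.0 ± 5.62 CPM in morphine libraries (SD, n = 4), a log2 fold change of 0.31 (SE 0.11) that did not pass the test (edgeR adjusted P = 0.306). Its receptor Sirpa, which neurons express as well, was 113 ± 25.8 against 140 ± 34.0 CPM, and Cd200, another restraining ligand, 59.6 ± 17.5 against 67.6 ± 16.1 CPM. The ligands of Csf1r differed by less than their spread, with Il34 at 14.8 ± 5.58 and 16.5 ± 6.49 CPM and Csf1 at 6.38 ± 1.13 and 6.95 ± 1.87 CPM. The enzymes that turn ATP into AMP and adenosine, Entpd1 and Nt5e, had log2 fold changes of 0.41 (SE 0.33) and 0.82 (SE 0.45).

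Of 14 other complement genes 6 were above and 8 below 0 (median log2 fold change -0.06), and 0 were called by edgeR or DESeq2. C3, the central component of the cascade, had 1.68 ± 0.803 CPM in controls and 1.32 ± 0.833 CPM in morphine libraries (SD, n = 4). Cd59a, an inhibitor of the membrane attack complex, was 3.76 ± 1.14 and 6.08 ± 2.72 CPM, the 1 gene of the list with an unadjusted P value under 0.05 (log2 fold change 0.70, edgeR adjusted P = 0.384). The inhibitors Cd55 and Cr1l had log2 fold changes of 0.02 (SE 0.23) and 0.26 (SE 0.19). Among 31 further genes of microglia and related myeloid cells, 15 were above and 16 below 0 (median -0.03) and 0 were called. Itgam, the integrin CD11b, had the lowest P value, with 0.214 ± 0.196 CPM in controls and 0.0522 ± 0.0380 CPM in morphine libraries (SD, n = 4; log2 fold change -1.96, SE 0.79, edgeR adjusted P = 0.345). It had 22 counts in control replicate 2 and 2 to 7 in the other controls, and its log2 fold change without that library was -1.11 (edgeR adjusted P = 0.489).

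Activated microglia express a further set of genes, many of which are known from neurons, endothelium or astrocytes too. Of 18 such genes 15 had fold changes above 0 (median 0.51, beside 0.01 over all genes). Of the 18, 8 had a mean below 1 CPM and 5 had 0 counts in at least 1 library. edgeR called 0 and DESeq2 2 of the 18 genes. Lpl, lipoprotein lipase, was 1.38, 4.28, 2.44 and 2.82 CPM in the controls and 4.72, 12.8, 10.4 and 7.05 CPM in the morphine libraries, so that its groups did not overlap (log2 fold change 1.67, SE 0.36, edgeR adjusted P = 0.0886, DESeq2 adjusted P = 0.000332). The other was Gpnmb, a glycoprotein of lysosomes, at 0.250 ± 0.0782 and 0.839 ± 0.431 CPM (log2 fold change 1.74, edgeR adjusted P = 0.143, DESeq2 adjusted P = 0.0293). Of 21 inflammatory genes 17 were above 0 (median 0.33). A mean below 1 CPM was found for 17 of the 21 and 0 counts in at least 1 library for 11, so that many of these directions rest on few counts. edgeR called 0 (1 without control replicate 6) and DESeq2 1, Ptgs2, the inducible cyclooxygenase, which neurons also make. Its levels were 0.128, 0.878, 0.430 and 1.60 CPM in the controls and 2.50, 5.75, 3.38 and 4.46 CPM in the morphine libraries, and its groups did not overlap (log2 fold change 2.41, SE 0.53, edgeR adjusted P = 0.0962, DESeq2 adjusted P = 0.000466). Lpl, Gpnmb and Ptgs2 were highest in morphine libraries, in which the summed level of the choroid plexus list was higher in every library than in the controls, and that of the telencephalic list in all but morphine replicate 3, and the part of that RNA in their levels was not tested.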

How the data were processed

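TRAP RNA of 8 libraries (4 control, 4 morphine) was analysed. The authors deposited whole-number read counts per RefSeq transcript, not normalized; the study's methods describe Salmon and tximport for its own analysis, whether the deposited table came from them is not stated, and the submitters' processing notes name mm10 and DESeq2. The table held 24488 transcripts of 18939 genes, and the transcript with the highest total stood for each gene. The quasi-likelihood test of edgeR 4.0.16 (R 4.3.3) was run with TMM factors on all genes with a count above 0 in any library, Benjamini-Hochberg adjustment covered all of them, and called means an adjusted P value under 0.05. Sex was tested beside condition, and their interaction in a model of both. CPM were computed from TMM-normalized library sizes, and exact tests used log2(CPM + 0.5). For levels per kilobase, transcript lengths came from the reference annotation and were found for all 9 members. Groups and replicates came from the labels; no source states sequencing batches, and no comparison within batches was made. The Poisson intervals cover counting error only, and since PCR copies are not marked they may be too narrow even for that.

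Members and lists were chosen with earlier results of these data known. Named genes are the 9 members, from each list those with the highest mean and the lowest P value and every called gene, partner and complement genes of at least 1 CPM, and the 10 most similar profiles. Of these, genes of the lists of other cell types are printed only where they bear on the members. A gene that this rule names is not reported here. Gpnmb was named after its values were seen. Other lists held other microglia genes, complement, partners, activation, inflammation, border macrophages, blood, neurons, astrocytes, oligodendrocytes, their precursors, endothelium, choroid plexus and telencephalic pyramidal neurons. Alternatives were DESeq2 1.42.0, RLE factors, filterByExpr, sex in the model, the sum over transcripts, each library left out and, added after seeing the data, edgeR's adjusted deviances. Tests were tried on simulated data. Figures were drawn with matplotlib 3.10.9.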

Additional observations from a re-analysis of the deposited data

How the results depend on the processing

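0 of the 9 microglia genes were called under every alternative run for the comparisons of condition, sex and their interaction, with DESeq2 giving Trem2 no adjusted P value for condition and none of the 9 one for sex, so that it could call none there, and 0 had groups that did not overlap, including with any 1 library left out. In the comparison of condition, 2 of 51 values of the 9 genes changed sign with other settings, Cx3cr1 (0.091) and P2ry12 (0.034), both with sex in the model. With 1 library left out, 14 of 72 changed sign, 7 of them without control replicate 2. The log2 fold changes then ranged from -0.34 to 0.79 for Cx3cr1, -0.29 to 0.49 for P2ry12, -0.62 to 0.057 for Tmem119, -0.48 to 0.51 for Csf1r, 0.02 to 1.10 for C1qa, -0.63 to 0.76 for C1qb, -0.999 to 0.12 for C1qc, -0.055 to 0.35 for Aif1 and -1.10 to 0.61 for Trem2, with adjusted P values by edgeR from 0.259 to 0.998 over these and the other settings. The highest value was without control replicate 2 for every gene but Aif1. For female against male, the ranges with 1 library left out were -0.97 to 0.019 for Cx3cr1, -0.65 to 0.038 for P2ry12, -0.031 to 0.75 for Tmem119, -0.76 to 0.33 for Csf1r, -0.86 to 0.70 for C1qb, -0.93 to 0.21 for C1qc, -0.28 to 0.19 for Aif1, -1.06 to -0.25 for C1qa and -1.82 to -0.41 for Trem2, the last 2 nearest 0 without control replicate 2. Without control replicate 5, whose sex label its Y-linked counts put in doubt, the interaction changed sign for Csf1r (-0.069) and C1qa (-0.081).

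Among all genes, edgeR called 37 for condition, against 498 by DESeq2, 14 with filterByExpr, 110 with sex in the model, 22 with the sum over transcripts, 56 with adjusted deviances and 0 to 77 with 1 library left out. Sex gave 1 called gene, 26 by DESeq2 and 0 to 5 with 1 library left out, and the interaction 0 by edgeR (325 genes at an unadjusted P value under 0.05) and 4 by DESeq2. The cause of these differences was not tested. The filter kept 6 of the 9 genes and dropped C1qc, Tmem119 and Trem2. Overlap of the groups was not run with RLE factors or the filter. No paired analysis was possible because the groups share no replicate numbers. With 21 to 244 counts per member over 8 libraries, both depth and the spread between libraries limit what can be seen.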
